A study of Mus musculus with 6 samples.

Results

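The 5 genes described here, Gata2, Gata3, Gata4, Gata5 and Gata6, encode members of the GATA family of transcription factors and were taken by gene symbol from the 9614 genes that the authors' peak files name. The data are 6 NimbleGen arrays that tile mouse promoters and compare DNA immunoprecipitated with an Ezh2 antibody (Cy5) with input DNA of the same mouse embryonic stem (ES) cells (Cy3). PL2F8 and AB2.2 are separate lines that share the strain 129/SvEvBrd-Hprtb-m2. PL2F8 is deficient in Brca1 and AB2.2 has wild-type Brca1, with 2 arrays each. R1 cells were transfected either with siRNA specific to Brca1 or with control siRNA and harvested 48 hours later, with 1 array each. All cells were grown with LIF, which keeps ES cells undifferentiated, on gelatin-coated dishes. The source of the duplicates is not labelled, so p-values cover no more than the variation from array to array, technical variation included. Ezh2 arrays cannot check the loss of Brca1, and fewer cells with Ezh2 at a gene cannot be told apart from less Ezh2 per cell.

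GATA factors bind DNA at the sequence they are named after through a pair of zinc fingers. Gata2 and Gata3 act mainly in blood and neural lineages: Gata2 is needed by blood stem and progenitor cells, and Gata3 directs T helper cell fate and the development of the ear, kidney and mammary gland. Gata4, Gata5 and Gata6 act in the heart and in endoderm, and Gata6 and Gata4 drive ES cells towards extraembryonic endoderm when they are expressed. In ES cells such lineage regulators are kept silent under the Polycomb repressive complex, whose subunit Ezh2 methylates histone H3, and the complex favours promoters rich in CpG dinucleotides.

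The promoter sequences are shown for the CpG dinucleotides, written in capitals, in the promoters of these genes. RefSeq sequences of build GRCm38.p6 are shown for Gata2, with 2 starts, Gata3 and Gata5. No entry was found for Gata4. Gata6 was left out of the sequences by choice, so the CpG and motif counts cover neither Gata4 nor Gata6. Each stretch is the 250 bases before a start, 5' to 3' on the gene's strand. The coordinates of this build were not matched to those of the arrays, so which of the Gata2 starts the arrays' window centres on was not determined.
Gata2 (chr6:88193641-88193890, plus strand): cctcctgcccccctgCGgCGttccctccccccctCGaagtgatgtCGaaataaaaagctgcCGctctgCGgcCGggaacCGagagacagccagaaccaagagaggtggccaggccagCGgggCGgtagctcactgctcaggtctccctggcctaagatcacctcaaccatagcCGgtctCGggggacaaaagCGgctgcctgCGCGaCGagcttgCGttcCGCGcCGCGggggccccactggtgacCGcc
Gata2 (chr6:88198414-88198663, plus strand): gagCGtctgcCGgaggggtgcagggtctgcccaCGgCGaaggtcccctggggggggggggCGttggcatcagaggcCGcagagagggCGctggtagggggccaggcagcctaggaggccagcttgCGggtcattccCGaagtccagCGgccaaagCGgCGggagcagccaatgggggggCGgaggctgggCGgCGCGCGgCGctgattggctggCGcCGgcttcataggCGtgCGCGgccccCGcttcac
Gata3 (chr2:9878601-9878850, minus strand): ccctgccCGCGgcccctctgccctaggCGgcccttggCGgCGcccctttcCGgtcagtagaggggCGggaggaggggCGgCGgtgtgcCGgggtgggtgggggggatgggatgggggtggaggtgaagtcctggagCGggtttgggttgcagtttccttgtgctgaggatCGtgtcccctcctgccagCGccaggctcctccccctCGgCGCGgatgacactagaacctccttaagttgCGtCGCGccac
Gata5 (chr2:180334680-180334929, minus strand): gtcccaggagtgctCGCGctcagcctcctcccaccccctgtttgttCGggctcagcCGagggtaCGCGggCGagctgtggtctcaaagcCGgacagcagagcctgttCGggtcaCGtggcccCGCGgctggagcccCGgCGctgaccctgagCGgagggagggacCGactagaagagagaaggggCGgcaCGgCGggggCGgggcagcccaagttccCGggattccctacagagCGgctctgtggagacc

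The Gata2 promoters hold 22 and 24 CpG dinucleotides, the Gata3 promoter 19 and the Gata5 promoter 22, against a median of 6 over 32851 promoters of the same length. Their G and C content was 67.2% and 74.0% at Gata2, 70.0% at Gata3 and 70.0% at Gata5, and the median promoter had 52.4%. The ratio of observed to expected CpG was 0.78 and 0.74 at Gata2, 0.63 at Gata3 and 0.72 at Gata5, with a median of 0.37. All 4 hold more CpG dinucleotides than the median promoter, and the Gata3 stretch has the fewest of the 4. By CpG count they stood above 80.3% to 88.0% of all promoters, and by CpG ratio above 68.4% to 79.8%. The GATA motif was searched on both strands in 4 spellings that do not contain each other. The spelling AGATAA occurs in 9.99% of all promoters. The spelling AGATAG occurs in 7.71% of them. The spelling TGATAA occurs in 7.94% of them. The spelling TGATAG occurs in 6.35% of them. At least 1 of the spellings is present in 26.5% of all promoters and in 0 of the 4 printed ones.

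The peak files give 1 transcription start for each of the 5 genes. In the coordinates of those files, which name no genome build, the starts lie at chromosome 6 position 88148657 for Gata2 (plus strand, NM_008090), chromosome 2 position 9800227 for Gata3 (minus strand, NM_008091), chromosome 14 position 63864097 for Gata4 (minus strand, NM_008092), chromosome 2 position 180069384 for Gata5 (minus strand, NM_008093) and chromosome 18 position 11052507 for Gata6 (plus strand, NM_010258). Each window runs over the probes that begin within 2 kb of the start and holds 28 probes, or 27 at Gata3. The tiling ends between 700 and 799 bp downstream of each start, so the windows reach farther upstream than downstream. No other named start lies in any of them, and every probe in them carries a count of 1 in its ID.

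All 5 genes carried Ezh2 on every array, and 4 of them lay among the most strongly occupied starts of the table. Values are mean log2 ratios of ChIP over input in a window, with each array centred on its median, so 1 is 2-fold over the array's median probe. The levels of different genes come from different probes, and their order is a description. All starts, or all windows, means the starts that the peak files name, each with a listed peak on at least 1 array. Tiled promoters without a listed peak are not among them. The window values of all 10186 named starts had medians of 0.59 and 0.55 on the PL2F8 arrays, 0.35 and 0.27 on the AB2.2 arrays, 0.51 with Brca1 siRNA and 0.49 with control siRNA.

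**Figure D1:**
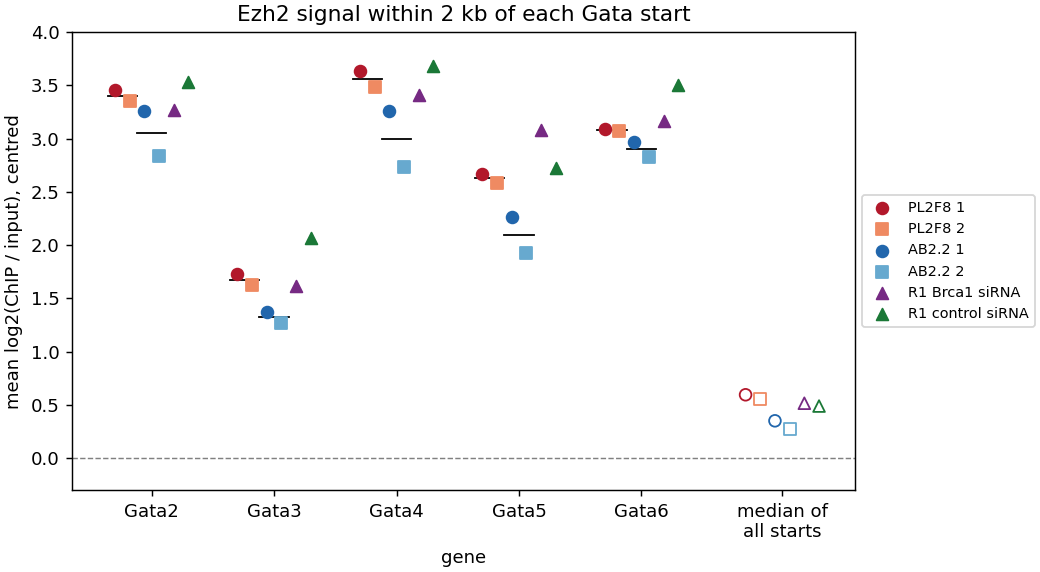
Mean log2 ratio of Ezh2 ChIP over input within 2 kb of the start of each Gata gene on each of the 6 arrays (points), with the means of the PL2F8 and AB2.2 duplicates as lines, and the median over all starts as open symbols. Gata3 is the lowest of the 5 on every array, between 1.27 and 2.07, and all 5 genes lie above the median of all starts on every array.

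Gata4, a factor of heart and endoderm, had 3.63 and 3.48 on the PL2F8 arrays, 3.26 and 2.74 on the AB2.2 arrays, 3.41 with Brca1 siRNA and 3.68 with control siRNA. Gata2 had 3.46 and 3.35 in PL2F8, 3.26 and 2.84 in AB2.2, 3.27 with Brca1 siRNA and 3.53 with control siRNA. These genes headed the order together: their means were 3.56 ± 0.11 and 3.40 ± 0.07 in PL2F8 and 3.00 ± 0.37 and 3.05 ± 0.30 in AB2.2 (SD, n = 2 each), and in AB2.2 they differed by less than the spread of the duplicates. Gata6 followed with 3.09 and 3.07 in PL2F8, 2.97 and 2.83 in AB2.2, 3.17 with Brca1 siRNA and 3.51 with control siRNA. Its AB2.2 mean of 2.90 ± 0.10 lay within the spread of Gata2 and Gata4, while its PL2F8 mean of 3.08 ± 0.02 lay below both by more than the SDs (n = 2).

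Gata5, the third factor of the heart and endoderm group, had 2.67 and 2.59 in PL2F8, 2.26 and 1.92 in AB2.2, 3.08 with Brca1 siRNA and 2.72 with control siRNA. Gata3 had 1.73 and 1.62 in PL2F8, 1.37 and 1.27 in AB2.2, 1.61 with Brca1 siRNA and 2.07 with control siRNA. Gata2, Gata4, Gata5 and Gata6 each stood above 94.98% to 99.7% of all starts, depending on array and gene, and Gata3 above 85.3% to 92.3%. Gata3 minus Gata5 was -0.94 and -0.96 on the PL2F8 arrays and -0.89 and -0.65 on the AB2.2 arrays.

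The authors' peak files list a peak within 2 kb of all 5 starts on all 6 arrays, where 37.1% of all named starts have one on all 6 arrays. A start is named only through a listed peak on at least 1 array, so promoters without one are outside this share. Each file gives 1 peak per start, the nearest, with a false discovery rate and a score that are the authors' own; the score is the log2 ratio of a high-ranking probe within the peak. Counting only peaks at a false discovery rate of at most 0.05, 27 of the 30 pairs of gene and array had a peak.

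**Figure D2:**
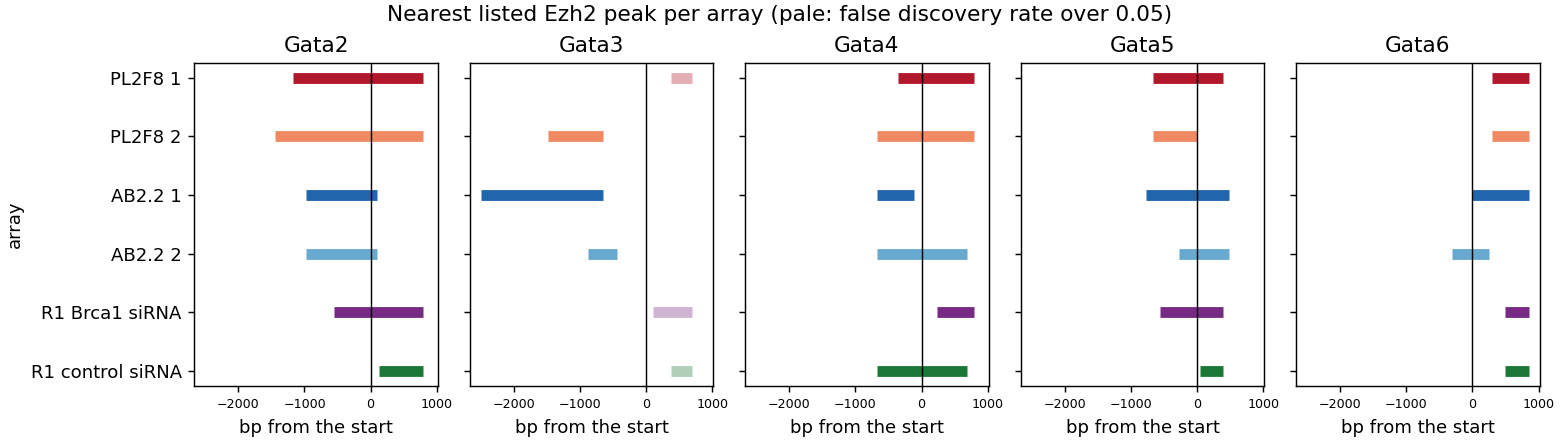
Extent of the peak that the authors list nearest to each Gata start, in bp from the start (downstream positive), 1 row per array with PL2F8 at the top. The 3 pale bars, all at Gata3, have a false discovery rate over 0.05, between 0.15 and 0.20.

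All 3 exceptions were at Gata3. On PL2F8 replicate 1 its listed peak ran from 376 to 700 bp downstream with a false discovery rate of 0.153 and a score of 1.46, and on PL2F8 replicate 2 it lay upstream, from -1482 to -647 bp, at 0.001 and 2.13. The AB2.2 arrays listed it upstream, from -2498 to -647 bp with a score of 2.25 and from -876 to -442 bp with a score of 2.34. With Brca1 siRNA it ran from 109 to 700 bp at a false discovery rate of 0.172, and with control siRNA from 376 to 700 bp at 0.198. Because only the nearest peak is listed, a downstream entry does not mean that the upstream signal was missing.

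Gata5 had peak scores of 3.96 and 3.66 on the PL2F8 arrays, 5.03 and 4.13 on the AB2.2 arrays, 4.35 with Brca1 siRNA and 4.13 with control siRNA. On AB2.2 replicate 1 this was the 28th highest of 5482 peaks, although the mean of the window was lower at Gata5 than at Gata2, Gata4 and Gata6 on that array. Gata4 had 4.50 and 4.44 in PL2F8, 3.82 and 3.51 in AB2.2, 3.96 with Brca1 siRNA and 4.65 with control siRNA. At Gata2 the listed peak was longer on the PL2F8 arrays, 1966 and 2251 bp, than on the AB2.2 arrays, 1063 bp on each; it was 1350 bp with Brca1 siRNA and 668 bp with control siRNA. No test was made on the peak lists.

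The comparison of PL2F8 with AB2.2 asked whether Ezh2 at the Gata genes differs in cells deficient in Brca1. Brca1 status and cell line coincide in this comparison and cannot be told apart. Gata3, Gata4, Gata5 and Gata2 were higher in PL2F8, and Gata6 did not pass the test; at all 5 genes both PL2F8 arrays lay above both AB2.2 arrays. Both counts sit on a wide background. Of 10186 start windows, PL2F8 was higher in 63.1% and lower in 8.61% at a limma adjusted p under 0.05, and in 73.7% both PL2F8 arrays lay above both AB2.2 arrays. The windows lower in PL2F8 numbered 877 with all 4 arrays, and this number depended on the arrays used. The median difference was 0.35 over the 5 Gata genes and 0.30 over all windows; among the 3776 windows with a listed peak on all 6 arrays it was 0.37, with 67.8% higher and 5.43% lower.

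**Figure D3:**
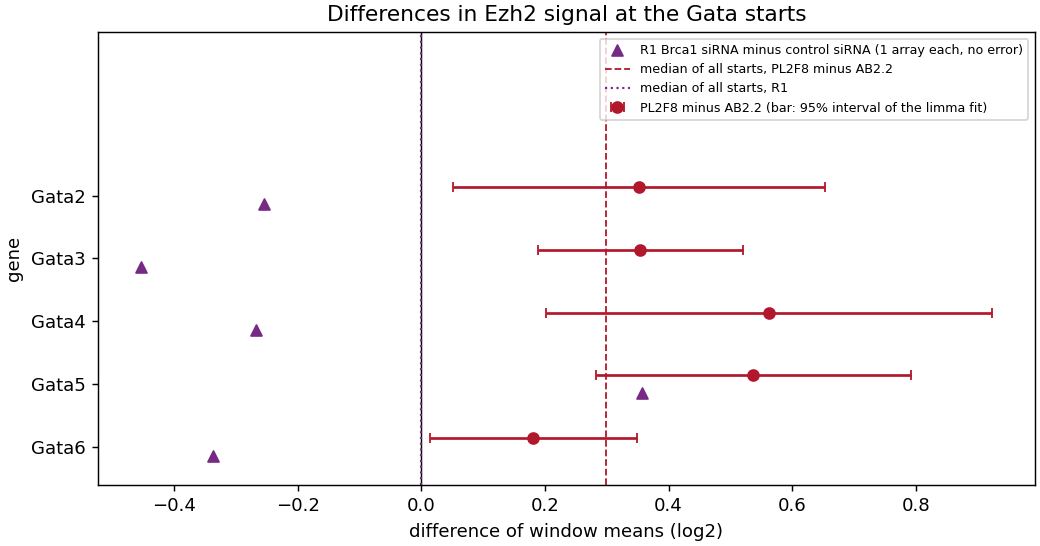
Difference of window means in log2 units for each Gata gene: PL2F8 minus AB2.2 with its 95% interval (circles) and R1 Brca1 siRNA minus control siRNA (triangles, 1 array each). The vertical lines mark 0 and the medians over all starts, 0.30 for PL2F8 minus AB2.2 and -0.00074 for R1. All 5 circles lie right of 0 and 4 of the 5 triangles left of it. After quantile normalization, which is not drawn, Gata6 was at -0.08.

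Gata4 was higher by 0.56 ± 0.15 (SE), or 1.48-fold, with a limma adjusted p of 0.0124, and Gata5 by 0.54 ± 0.11, or 1.45-fold, with an adjusted p of 0.00315. Relative to the median of all windows these are excesses of 0.26 and 0.24, and 79.1% and 76.9% of all windows had a smaller difference. Gata3 was higher by 0.35 ± 0.07 (limma adjusted p = 0.00298) and Gata2 by 0.35 ± 0.13 (0.0392), both within 0.06 of the median of all windows. The Gata3 difference was uneven along the window, and 3 of its 27 probes, from 500 to 1000 bp downstream, differed by a mean of 2.22. Gata6 differed by 0.18 ± 0.07 with a limma adjusted p of 0.0514 and a 95% interval of 0.01 to 0.35. Relative to the median of all windows Gata6 was at -0.12.

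The call at Gata2 was lost without PL2F8 replicate 1, with a difference of 0.30 and a limma adjusted p of 0.130, and with a variance trend and robust moderation in limma (adjusted p = 0.117). The Gata2 difference was 0.14 without AB2.2 replicate 2, the lowest array at all 5 genes, and 0.56 without AB2.2 replicate 1. Gata4 differed by 0.30 without AB2.2 replicate 2 and by 0.82 without AB2.2 replicate 1. Gata6 differed by 0.25 without AB2.2 replicate 1 and by 0.11 without AB2.2 replicate 2. Without an AB2.2 array the spread comes from the PL2F8 duplicates alone, so only sizes are given for these fits. Over all windows the SD of the difference between duplicates was 0.061 in PL2F8 and 0.124 in AB2.2. The chip IDs in the files fall into 2 number series, and PL2F8 replicate 2 is in the series of the AB2.2 arrays; within it, which is the fit without PL2F8 replicate 1, Gata4 differed by 0.49, Gata5 by 0.49, Gata3 by 0.30, Gata2 by 0.30 and Gata6 by 0.17. In the other there is no array of AB2.2. Within 1 kb of the start Gata2 was at 0.10 and Gata4 at 0.41 and neither passed (limma adjusted p = 0.522 and 0.0702), and the median of the probes left Gata3 at 0.25 (0.0524), Gata5 at 1.13 and Gata6, then called, at 0.39 (0.0219).

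After quantile normalization the median over all windows was 0.14, Gata4 and Gata5 stayed higher at 0.34 and 0.33 (limma adjusted p = 0.00427 and 0.00121), Gata2 and Gata3 were at 0.10 and 0.05 and not called, and Gata6 turned to -0.08. Whether the Gata genes differ from each other in their response was set against the arrays for all 10 pairs. Gata4 minus Gata6 was larger in PL2F8 by 0.38, and Gata5 minus Gata6 was less negative there by 0.36. Gata5 minus Gata6 was -0.42 and -0.48 on the PL2F8 arrays and -0.71 and -0.90 on the AB2.2 arrays. The exact permutation test, two-sided, gave p = 0.333 for these pairs, the smallest that 2 arrays against 2 allow, and 0.556 after adjustment over the 10 pairs.

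Along each start, the Ezh2 profile had its own shape, and the duplicates repeated it. Over the 27 or 28 probes of a window, the PL2F8 duplicates correlated at r between 0.968 and 0.990 and the AB2.2 duplicates between 0.939 and 0.979. Between PL2F8 replicate 1 and AB2.2 replicate 1, r was 0.87 at Gata6, 0.86 at Gata5, 0.78 at Gata2, 0.57 at Gata4 and 0.48 at Gata3. These are correlations across neighbouring probes, which share DNA fragments and their own hybridisation behaviour, and are given without a test. At Gata4 the control siRNA array correlated at 0.85 and 0.89 with the AB2.2 arrays and at 0.43 and 0.52 with the PL2F8 arrays, and at Gata5 at 0.89 and 0.84 with AB2.2 and 0.94 and 0.95 with PL2F8.

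**Figure D4:**
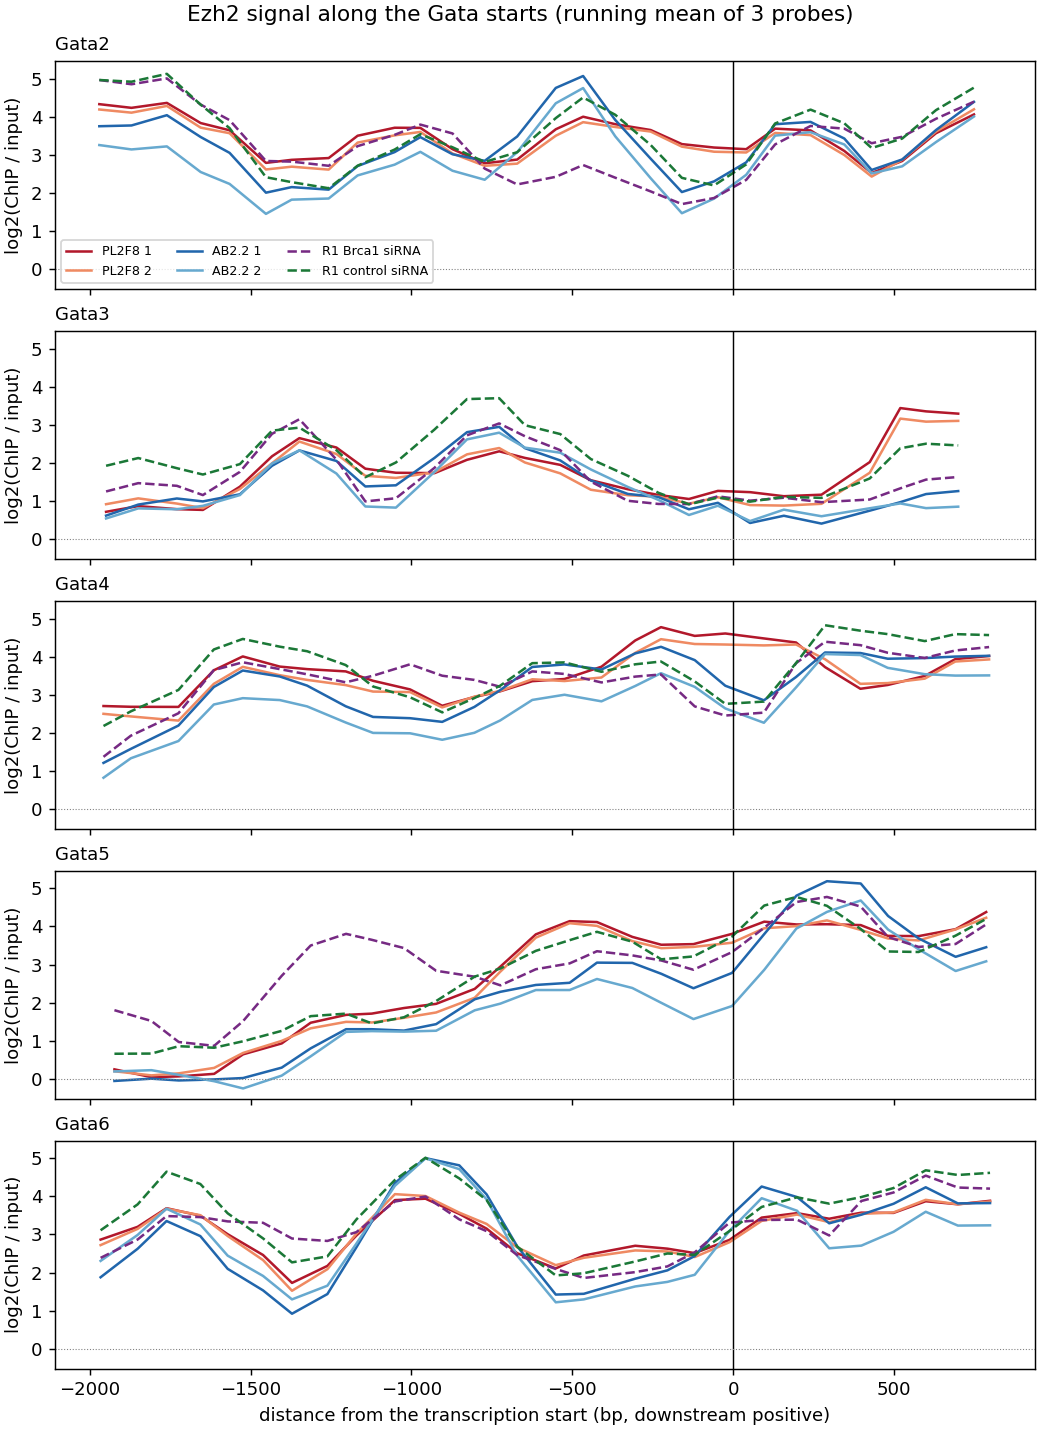
Log2 ratio of ChIP over input along the 5 Gata starts, as a running mean of 3 probes, against distance from the start in bp; solid lines are the PL2F8 and AB2.2 arrays and dashed lines the R1 arrays. The duplicates of a line run close together, and the lines part at particular stretches: downstream of the Gata3 start, around the Gata4 start and upstream of the Gata5 start PL2F8 is higher, and between -1000 and -500 bp at Gata6 AB2.2 is higher.

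In 500 bp bins, tested over 62037 bins of all windows, 15 of the 30 Gata bins were higher in PL2F8, 2 were lower and 13 were not called (limma, adjusted p under 0.05). The background was 43.5% higher and 14.1% lower. Per probe, both PL2F8 arrays lay above both AB2.2 arrays at 16 of 28 Gata2 probes, 12 of 27 at Gata3, 17 of 28 at Gata4, 18 of 28 at Gata5 and 15 of 28 at Gata6, against 39.4% of all probes. Both lay below at 5, 6, 4, 4 and 7 probes of these genes in the same order, against 34.1% of all probes. All probes here means all 714900 probes of the arrays, tiled promoters without a listed peak included. The shares among probes near named starts were not computed, so these counts do not set the Gata genes apart from other named starts. The number of called Gata bins changed with the array left out. Such fits keep a single array of 1 line, so their counts are not given. After quantile normalization 10 of the 15 higher bins kept their call and 5 lost it. When 1 array was left out, the difference ran from 2.04 to 2.41 at Gata3 from 500 to 1000 bp. It ran from 0.915 to 1.095 at Gata5 from -1000 to -500 bp and from 0.72 to 1.10 at Gata5 from 500 to 1000 bp. Other called bins moved more, and Gata4 from -500 to 0 bp ran from 0.38 to 1.14.

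The Gata3 bin from 500 to 1000 bp held the largest difference of the 30, and 99.3% of all bins differed by less. It had 3.35 and 3.08 on the PL2F8 arrays, 1.18 and 0.81 on the AB2.2 arrays, 1.56 with Brca1 siRNA and 2.50 with control siRNA. Both PL2F8 arrays were above every other array, and the difference from AB2.2 was 2.22 ± 0.16 (SE; limma adjusted p = 0.000252). It rests on 3 probes, of which the one at 600 bp had 5.09 and 5.01 in PL2F8 and 1.35 and 1.24 in AB2.2, and the one at 520 bp had 3.47 and 3.04 in PL2F8 and 1.02 and 0.73 in AB2.2. The one at 700 bp had 1.49 and 1.19 in PL2F8 and 1.16 and 0.45 in AB2.2. The Gata3 bin from -1000 to -500 bp went the other way, with 2.12 and 2.10 in PL2F8 and 2.55 and 2.46 in AB2.2, a difference of -0.39 ± 0.10 (limma adjusted p = 0.0156). Apart from the bin from 500 to 1000 bp, the Gata3 bins differed by -0.39 to 0.50.

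At Gata5 4 of the 6 bins were higher in PL2F8, and the bin just after the start was not. From -500 to 0 bp it had 3.66 and 3.56 in PL2F8 and 2.70 and 1.95 in AB2.2, a difference of 1.28 ± 0.24, and from -1000 to -500 bp 3.17 and 2.99 in PL2F8 and 2.17 and 1.99 in AB2.2, a difference of 1.01 ± 0.12 (limma adjusted p = 0.00529 and 0.00102). From 0 to 500 bp, where Gata5 carried its highest signal, it had 4.08 and 3.95 in PL2F8 and 4.91 and 4.26 in AB2.2; the difference of -0.57 ± 0.22 did not pass the test (limma adjusted p = 0.0647) and was at -0.51 with an adjusted p of 0.0144 after quantile normalization.

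Gata4 was higher in PL2F8 from -2000 to -1500 bp by 0.93 ± 0.18, from -1500 to -1000 bp by 0.76 ± 0.19 and from -500 to 0 bp by 0.76 ± 0.25, and its downstream bins, at 0.28 and 0.15, were not called. Gata2 was higher in the same 3 bins, by 0.76 ± 0.24, 0.87 ± 0.14 and 0.62 ± 0.17. Gata6 was higher from -2000 to -1500 bp by 0.52 ± 0.14 and from -500 to 0 bp by 0.56 ± 0.14, both calls being lost after quantile normalization, at 0.19 and 0.17 (limma adjusted p = 0.422 and 0.155). Gata6 was lower from -1000 to -500 bp, with 3.03 and 3.13 in PL2F8 and 3.60 and 3.43 in AB2.2 (-0.43 ± 0.11; limma adjusted p = 0.0167). At the Gata6 probe at -851 bp PL2F8 had 3.86 and 3.91 and AB2.2 5.05 and 5.13, and at -766 bp PL2F8 had 2.99 and 3.03 and AB2.2 4.53 and 4.31. When a window is summarised by its highest running mean of 5 probes, Gata6 fell by 0.72 in PL2F8 (limma adjusted p = 0.00404) and Gata4 rose by 0.47 (0.0370), while Gata2 at 0.07, Gata3 at -0.14 and Gata5 at -0.52 were not called.

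**Figure D5:**
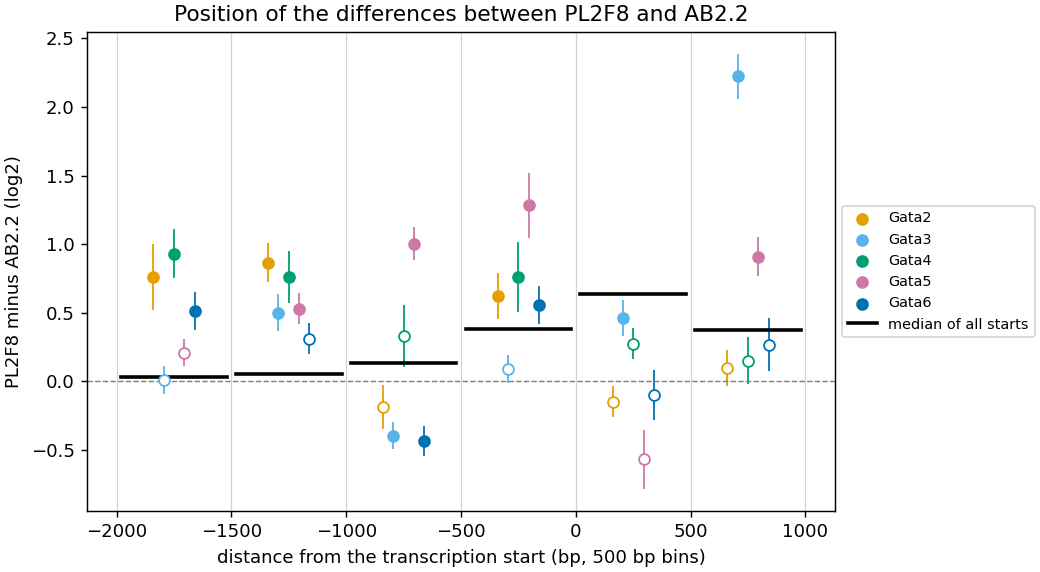
PL2F8 minus AB2.2 in log2 units for 500 bp bins along the 5 Gata starts, with SE; filled points passed the test (limma, adjusted p under 0.05), open ones did not, and black lines are the medians of all starts at that position. From 0 to 500 bp 4 of the 5 Gata genes lie between -0.57 and 0.28 and Gata3 at 0.46, all below the median of all starts of 0.64, and upstream of -1000 bp most lie above it.

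By position, the Gata medians and those of all starts were set side by side. Over all starts the median difference was largest from 0 to 500 bp, at 0.64, and near 0 upstream, at 0.03 from -2000 to -1500 bp and 0.06 from -1500 to -1000 bp. At the 5 Gata genes the median was -0.10 from 0 to 500 bp, with 1 of 5 called higher, where 64.9% of all bins at that position were. It was 0.52 from -2000 to -1500 bp, with 3 of 5 called higher (28.2% of all bins there), and 0.53 from -1500 to -1000 bp, with 4 of 5 (30.5%). From -1000 to -500 bp 1 was higher (36.8%) and 2 were lower (16.7%), and from -500 to 0 bp 4 were higher (52.2%). No test was made of the Gata genes against other starts.

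The R1 arrays asked whether short depletion of Brca1 goes with like differences, and with 1 array per condition their differences have no replicate check. Here 4 of the 5 Gata genes were lower with Brca1 siRNA, where 50.1% of all windows were: Gata3 by 0.45, Gata6 by 0.34, Gata4 by 0.27 and Gata2 by 0.26 on the log2 scale. Gata5 was higher by 0.36. With median centring and the mean over 2 kb none reached a difference of 0.5, which 3.28% of all windows reached upwards and 2.75% downwards. Other settings took Gata3 to -0.53 (arrays scaled to equal spread), -0.61 (median of the probes) and -0.64 (highest running mean of 5 probes), and Gata2 to -0.53 within 1 kb; the median over all windows was -0.00074. Brca1 siRNA was below control siRNA in 24 of 28 probes at Gata4, 21 of 27 at Gata3, 20 of 28 at Gata6, 16 of 28 at Gata2 and 14 of 28 at Gata5. The share was 52.5% over all probes, tiled promoters without a listed peak included. The lower signal was spread over most of the Gata4, Gata3 and Gata6 windows.

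The value at Gata5 was largest in one stretch. From -1500 to -1000 bp it had 3.49 with Brca1 siRNA and 1.47 with control siRNA, a difference of 2.03, and each of the 5 probes there was higher with Brca1 siRNA. The PL2F8 arrays had 1.52 and 1.38 in the same bin and the AB2.2 arrays 1.00 and 0.85, so the Brca1 siRNA array stood above the other 5. In a window of 1 kb on either side, which leaves this stretch out, Gata5 was at -0.14. At Gata2 the bin from -500 to 0 bp was the one that differed most, with 2.13 with Brca1 siRNA and 3.24 with control siRNA, a difference of -1.11. At Gata3 the bin from 500 to 1000 bp had 1.56 with Brca1 siRNA and 2.50 with control siRNA, a difference of -0.94, in the stretch where PL2F8 was higher than AB2.2.

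The R1 control siRNA array and the AB2.2 arrays, all of cells with wild-type Brca1, also differed. R1 cells were transfected and no transfection is labelled for AB2.2, so line and transfection cannot be told apart here. The control siRNA array of R1 was above the AB2.2 mean by 0.48 at Gata2, 0.74 at Gata3, 0.68 at Gata4, 0.63 at Gata5 and 0.61 at Gata6, and by a median of 0.21 over all windows. These differences are larger than those of PL2F8 from AB2.2 at each of the 5 genes; both comparisons share the AB2.2 arrays, and the first has 1 R1 array. At Gata2, Gata3, Gata4, Gata5 and Gata6 the control siRNA array was also above both PL2F8 arrays.

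Genes with values most like each Gata gene over the 6 arrays, by the root mean square difference of window values among 9612 genes, were drawn from several gene families. For Gata2 they were Pou3f2 (0.0728), Hoxc9 (0.0901) and Pcdh17 (0.0992), for Gata4 Hoxc9 (0.108), Gfra1 (0.124) and Gata2 (0.131), and for Gata6 Sim1 (0.112), Wnt5a (0.135) and Wnt3 (0.138). For Gata5 they included Pkp1 (0.0784) and Mfsd2a (0.105), and for Gata3 they were Sdk1 (0.0647), Plekhg3 (0.0658) and Dram1 (0.0862). The median over all genes lay between 1.24 for Gata3 and 2.94 for Gata4. Pou3f2 encodes a neural homeodomain factor, Sim1 a factor of the hypothalamus, Gfra1 a receptor for GDNF and Pkp1 a desmosome protein.

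The partner lists hold 77 genes: partners and targets of GATA factors and 9 other genes with GATA-type zinc fingers. Of the 77, 58 were named in the peak files, with Col4a1 and Col4a2 sharing a window. In PL2F8 35 were higher, 4 lower and 19 not called, near the 63.1% higher and 8.61% lower of all windows. The median difference was 0.30, the same as that of all windows. The number lower was 13 after quantile normalization. Of 9 other genes with GATA-type zinc fingers 3 were measured, and all 3 were higher: Mta1, a subunit of the NuRD repressor, by 0.52 ± 0.09 (SE), Gatad2a, also of NuRD, by 0.24 ± 0.07, and Trps1, a repressor with a GATA finger, by 0.21 ± 0.07. Their window values were low, for example 0.37 in PL2F8 and 0.13 in AB2.2 at Gatad2a.

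Of 17 blood partners, 11 passed the test upwards and 0 downwards (median 0.31), against 63.1% and 8.61% of all windows. Gfi1b, a repressor of red cell and platelet precursors, had 0.63 in PL2F8 and -0.20 in AB2.2, a difference of 0.82 ± 0.06, and Fli1, an Ets factor of blood and vessels, had 3.40 in PL2F8 and 2.75 in AB2.2, a difference of 0.65 ± 0.09. Lmo1 at 0.12 and the myeloid factor gene Cebpa at -0.19 were the lowest and were not called. Outside the naming rule and chosen after their values were seen, the cofactor Zfpm1, known as FOG1, which binds GATA factors directly, rose by 0.57 ± 0.08, and its relative Zfpm2 differed by 0.14 with a limma adjusted p of 0.168.

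Of 12 heart partners, 9 passed upwards and 1 downwards (median 0.33), again beside 63.1% and 8.61% of all windows, which are also the background of the next lists. Myocd, the coactivator of smooth and heart muscle genes, rose by 0.62 ± 0.07 and Mesp1, a factor of the earliest heart mesoderm, by 0.57 ± 0.08. Tbx20 fell by 0.75 ± 0.07, with 2.12 in PL2F8 and 2.87 in AB2.2, and Tbx5 was at -0.06 and not called. Among 14 endoderm partners, of which Col4a1 and Col4a2 share a window, 6 passed upwards and 2 downwards (median 0.22). Foxa1, a pioneer factor, rose by 1.12 ± 0.11, while Lama1, a laminin chain of the basement membrane of primitive endoderm, fell by 0.90 ± 0.07 and the chemokine receptor gene Cxcr4 by 0.47 ± 0.06. Among 12 partners of Gata3, 6 passed upwards and 1 downwards (median 0.28). Tbx21, which opposes Gata3 in T helper cells, rose by 0.85 ± 0.07 and Ret, a receptor of the developing kidney, by 0.63 ± 0.08. Bcl11b, a T cell factor, fell by 0.38 ± 0.09.

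Markers of other cell types give Ezh2 binding, not expression, and their counts too stand beside 63.1% higher and 8.61% lower over all windows. Of 6 pluripotency genes named, 2 were higher, 1 lower and 3 not called, with a median of 0.03, which was -0.14 after quantile normalization. Esrrb rose by 0.59 and Klf4 by 0.32, Pou5f1 fell by 0.75 to -0.59 in PL2F8, against 0.16 in AB2.2, and Sox2 was at -0.15. Of 7 genes of extraembryonic endoderm, 2 were higher and 1 lower (median 0.14, and -0.13 after quantile normalization), with Dab2 at 0.56, Sox17 at 0.36, Lama1 at -0.90 and Amn, not called, at 0.03. Of 9 fibroblast genes, 5 were higher and 0 lower (median 0.43), with Twist1 at 1.11, Col1a2 at 0.91, and Fn1 and Thy1, not called, at -0.06 and -0.10. Whether other cell types had a part in the differences at the Gata genes was not tested.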

How the data were processed

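The deposited table gives a log2 ratio of ChIP over input for each of 714900 probes on each array. Per the series' design text it is normalized ChIP DNA divided by normalized input DNA; its normalization, software and build: not given in the sources used here. Column medians were 0.02 to 0.04. Direction and scale were checked with the peak scores, log2 ratios per the file headers: they correlated with the fourth highest table value of their peak at r from 0.969 to 0.986. The false discovery rate of a peak is a fraction, per the file headers, of at most 0.198. Here each array was centred on its median, without loess or quantile steps. A window averages the probes that begin within 2 kb of a named start (at least 5 probes; 3 in a bin); neighbouring windows can share probes. Windows, and separately bins, of PL2F8 and AB2.2 were compared with limma (version 3.58.1, R 4.3.3) by lmFit and eBayes, two-sided. P-values were adjusted by Benjamini-Hochberg over all windows or all bins, with a threshold of 0.05. The procedure was run on simulated data drawn with equal spread in both lines. That run cannot show how it behaves with the unequal spread of these duplicates. Window values of duplicates correlated at 0.998 in PL2F8 and 0.989 in AB2.2, and the number of arrays limits the precision. Other steps used numpy 2.4.6, pandas 2.3.3 and scipy 1.17.1 under Python 3.11.15. Named are the Gata genes, the 2 highest and 2 lowest differences of each list and the 3 genes most like each Gata gene. A few of them are left out of the text. The members and lists were chosen with earlier results of these data known. Alternatives covered scaling, window, summary, probe filter, variance model, each array left out and a replicate block.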

Additional observations from a re-analysis of the deposited data

Results flagged for a closer look

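At 4 of the 5 Gata genes the R1 pair and the line pair ran in opposite directions. R1 Brca1 siRNA minus control siRNA was -0.2550 at Gata2, -0.4541 at Gata3, -0.2668 at Gata4 and -0.3371 at Gata6 on the log2 scale, while both PL2F8 arrays lay above both AB2.2 arrays at each of them. The difference between the comparisons was not tested, since each siRNA has 1 array, and for Gata6 the sign of PL2F8 minus AB2.2 turned after quantile normalization.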

How the results depend on the processing

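The number of Gata windows higher in PL2F8, 4 with all arrays and median centring, was 2 after quantile normalization, 2 with a window of 1 kb and 1 when a window was summarised by the highest mean of 5 adjacent probes (the running mean), which also made 1 lower. Windows of all starts that were higher, 6432 with all arrays and median centring, numbered 5065, 6524 and 5074 with these settings in the same order. Gata6 was at -0.077 after quantile normalization, and with the running mean Gata3 was at -0.14, Gata5 at -0.52 and Gata6 at -0.72. Windows of all starts that were lower, 877, numbered 2109 after quantile normalization, 505 with the median of the probes and 1497 with the running mean. Partner genes that were lower, 4, numbered 13 and Gata bins that were lower, 2, numbered 5 after quantile normalization. Leaving out 1 array gave 512 to 1281 lower windows, 4 to 8 lower partner genes, 3 to 20 higher Gata bins and 0 to 5 lower ones. In each such fit 1 line keeps a single array, which is assumed to vary like the other line, so these numbers are not given. The replicate numbers of the titles are shared, but the deviations of the pairs correlated at only 0.25 with 2 pairs and no label ties them to a batch. With a replicate block 5 Gata windows were higher, as were 7021 of all windows, and Gata6 passed with an adjusted p of 0.00775 (limma). The cause of these changes was not tested. R1 values have no replicate, and Gata5 there was at -0.14 with a window of 1 kb and Gata2 at 0.002 with the running mean, while Gata3 lay between -0.44 and -0.64 over the settings. Limma with a variance trend and robust moderation left 3 Gata windows higher, and 6666 of all windows. Probes whose ID carries a count of 1, an alternative chosen after seeing the data, left 4 Gata windows higher, and 6311 of all windows.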
